A study of Mus musculus with 20 samples.

Results

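The photoreceptor layer of the adult mouse retina was compared with the inner nuclear layer on 8 of the 20 arrays of the study, chosen by their labels alone. Both layers were cut by laser capture microdissection, in which a laser lifts a chosen strip of tissue from a section, from C57BL/6 mice aged 7 to 8 weeks. Each layer had 2 arrays from light-adapted mice (6 h at 450 lux) and 2 arrays from dark-adapted mice (3 h at no more than 0.4 lux), so 4 arrays stood against 4. The photoreceptor samples joined the outer nuclear layer, which holds the cell bodies of rods and cones, with their inner and outer segments. Somata of bipolar, horizontal and amacrine neurons make up the inner nuclear layer together with those of Müller glia, whose processes also reach into the other layers. The other 12 arrays held whole retina and the 2 innermost strata (inner plexiform and ganglion cell layers), with 2 arrays for each adaptation state. All mice were of the same strain, and no genotype or drug separated the groups. Arrays are not tied to animals in the labels, so p-values measure only how far the deposited samples spread, and this spread may be technical.

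Rods and cones turn light into an electrical signal in their outer segments, stacks of membrane that hold the visual pigments and the enzymes of phototransduction. Activated pigment acts through the G protein transducin on a phosphodiesterase, which lowers cyclic GMP and closes a cation channel, and guanylate cyclases restore the cyclic GMP. At the other end of the cell a ribbon synapse releases glutamate onto bipolar and horizontal cells, and ON bipolar cells read that glutamate through the receptor mGluR6 and the channel TRPM1. Müller cells, the main glia of the retina, take up glutamate, turn it into glutamine and handle retinoids.

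Values are intensities on a linear scale, and differences are on the log2 scale after intensities under 8 were set to 8, with the light-adapted and dark-adapted differences weighted equally and the standard error (SE) of the fit. A gene is called where its adjusted p from limma was under 0.05. The 8 arrays had medians of 40.1 to 40.8 and 11.27% to 12% of values under the floor. Across genes the arrays of a group correlated at 0.935 and 0.937 in the photoreceptor layer and at 0.908 (light) and 0.858 (dark) in the inner nuclear layer. Dark-adapted replicate 2 of the inner nuclear layer stood apart: its mean level over 19 rod genes was 7.57, against 6.25, 6.26 and 6.90 on the other arrays of that layer and 9.18 to 9.31 in the photoreceptor layer. It was also the highest array of its layer on 18 bipolar genes (6.64, against 6.00 to 6.26), 11 genes of the ON bipolar cascade (7.08, against 6.51 to 6.88) and 21 cilium genes (6.28, against 5.58 to 5.76). Replicate 1 of the light-adapted photoreceptor and inner nuclear groups carried Y-linked signal (median intensities of 293.2 and 286.15 over 68 probe sets). The other 6 arrays lacked it (8.55 to 25.75). Xist, the RNA of the inactive X chromosome, read 23.2 and 29.2 on the arrays with that signal and 117.3 to 514.3 on the other 6. Single-copy Y-linked genes read low even on the former: Uty 35.2 and 12.5, Eif2s3y 19.3 and 7.9, Kdm5d 17.6 and 14.0, and Usp9y 7.3 and 7.8. On the other 6 arrays these genes read 3.5 to 11.4. Beyond the 8 arrays, Y-linked signal was also present on both light-adapted ganglion cell arrays (346.7 and 200.95) and light-adapted whole retina replicate 1 (207.3). Values given without the arrays with Y-linked signal left all of these out, so no light-adapted ganglion cell array remained in that fit. The part of the arrays with this signal in the results was not tested beyond the values without them given here.

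Of 15057 genes tested, 802 (5.33%) were called between the layers, 613 (4.07%) higher and 189 (1.26%) lower in the photoreceptor layer. At an unadjusted p under 0.05 there were 2400 genes. The called genes leaned to the photoreceptor side in number and in size: 350 were more than 2-fold higher there and 74 more than 2-fold lower, 65 against 4 passed 4-fold, and all 13 that passed 8-fold were higher in the photoreceptor layer. The median difference was 1.08 among the higher genes, -0.88 among the lower ones and -0.05 over all genes. The 4 arrays of a layer did not overlap with the 4 of the other for 2000 genes (13.3%), of which 739 were called. Without the arrays that carried Y-linked signal, 388 genes were called, 306 higher and 82 lower, and 380 of them were among the 802. Array weights gave 1173 calls, 338 of them lower. Leaving out any 1 of the 8 arrays gave 442 to 788 calls. The total fell most without light-adapted replicate 2 of the photoreceptor layer (442), its dark-adapted replicates 2 (475) and 1 (487), and light-adapted replicate 1 of the inner nuclear layer (501). In bulk tissue of this kind, fewer cells of a type and less RNA per cell cannot be told apart.

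**Figure D1:**
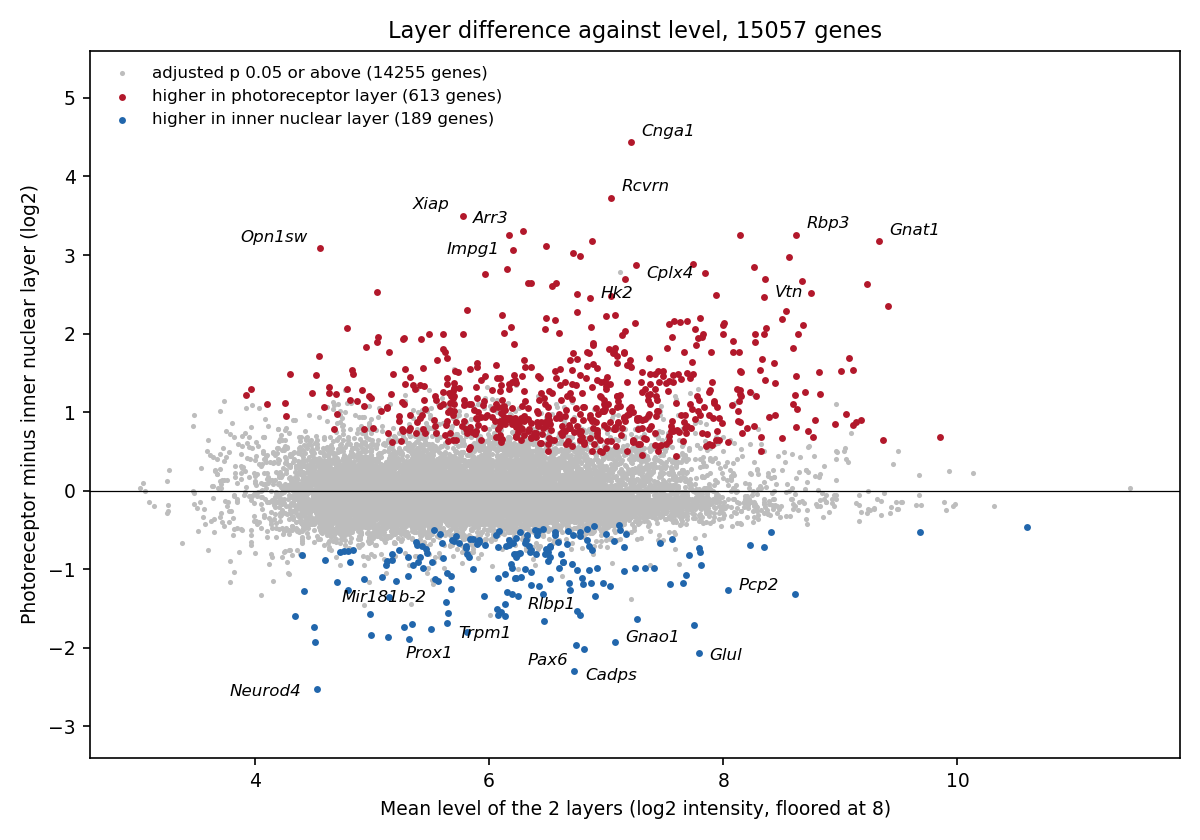
Difference between the photoreceptor and inner nuclear layers (vertical axis, log2) against the mean level of both layers (horizontal axis, log2 intensity) for 15057 genes, each a point. Red points are the 613 genes called higher in the photoreceptor layer, which reach 4.44 at Cnga1, and blue points the 189 called lower, which reach -2.53 at Neurod4.

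Every measured gene of rod phototransduction was higher in the photoreceptor layer. All 19 of 21 listed genes that had a probe set of their own passed the filter on dim signal, were called and did not overlap between the layers, with a median difference of 2.63 against -0.05 for all genes. Guca1b is not analysed here. The rod cyclic GMP-gated channel subunit Cnga1 had the largest difference of any gene called with non-overlapping arrays. Its intensities in the photoreceptor layer were 637.7 and 701.3 in light and 735.4 and 688.6 in dark, and in the inner nuclear layer 13.6 and 11 in light and 58.6 and 116.2 in dark. The photoreceptor arrays thus lay close together while both dark-adapted inner nuclear arrays were well above the light-adapted ones. The layer difference was 4.44 ± 0.61 (SE, 4 against 4 arrays, 21.7-fold, adjusted p = 0.00019).

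Recoverin (Rcvrn), a calcium sensor of photoreceptors, had a steadier background. It read 427.9, 385.1, 627.3 and 521.5 in the photoreceptor layer (light replicates 1 and 2, then dark replicates 1 and 2, an order kept throughout) and 36.6, 22.2, 43.3 and 49.2 in the inner nuclear layer. Its lowest photoreceptor array stood far above its highest inner nuclear array, and the difference was 3.73 ± 0.28 (13.3-fold, adjusted p = 3.1e-07). Rod transducin alpha (Gnat1), the G protein subunit that carries the light signal onward, read 1757.5, 2062.7, 1870.4 and 2053.3 against 82.9, 118.9, 334.8 and 632.8. For this gene too the dark-adapted inner nuclear arrays were the higher pair, and the difference was 3.18 ± 0.39 (9.04-fold, adjusted p = 5.1e-05). The subunits of the rod phosphodiesterase that transducin activates differed by 3.25 ± 0.42 (Pde6a), 2.85 ± 0.32 (Pde6b) and 2.52 ± 0.30 (Pde6g).

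The genes that reset the rod after light were higher as well. Gucy2f, a guanylate cyclase of photoreceptor outer segments, read 216.8, 292.0, 248.2 and 317.4 against 23.4, 25.6, 28.6 and 50.8, and its activator Guca1a read 367.1, 348.4, 354.3 and 203.1 against 32.1, 33.7, 34.5 and 61.4. Neither gene's arrays overlapped between layers, with differences of 3.12 ± 0.34 and 2.99 ± 0.24. Slc24a1, the sodium/calcium-potassium exchanger that extrudes calcium from the rod outer segment, had the smallest p of the list (2.69 ± 0.17, adjusted p = 6.8e-08). Arrestin (Sag, 2.29 ± 0.33), the photoreceptor kinase Grk1 (1.96 ± 0.27) and the GTPase-accelerating protein Rgs9 (2.19 ± 0.24), which shut off pigment and transducin, lay in the middle of the list. At its lower end stood the Rgs9 anchor Rgs9bp (0.90 ± 0.18) and the channel subunit Cngb1, whose intensities of 693.0 to 776.0 and 367.3 to 467.9 gave 0.84 ± 0.17, while its other 3 probe sets differed by 0.80, 1.13 and 1.72. Leaving out any 1 array kept 19 calls, and leaving out the arrays with Y-linked signal kept 18, with Cngb1 lost (adjusted p = 0.053). In light the list's median difference was 3.15 and in dark 1.98, and no member passed the test of that change.

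The start regions of many rod genes held TAATCC, the core of the sites bound by CRX and OTX homeodomain proteins. These letters were searched on both strands, from 250 bases before to 50 bases after the start in RefSeq (GRCm38.p6), a table that held such a region for 11887 of the 15057 genes. They occurred in 8 of the 14 rod genes with a region (57.1%), in 5.96% of all genes, in 11% of genes called higher and in 9.86% of genes called lower. TAATTA (a paired and LIM homeodomain motif, searched in the same way) was in 0 of the 14 rod genes and 3.01% of all, and TGCTGA (the MAF-type motif to which NRL binds) in 4 of the 14 and 16.7% of all. A match describes letters and not binding. The 100 bases before the start are given for 4 rod genes, and for 2 genes of the inner nuclear side (the bipolar channel Trpm1 and the bipolar calcium-binding protein Cabp5) to set beside them, with TAATCC or its reverse complement GGATTA in capitals.
Gucy2f (chrX:142196937-142197036, minus strand): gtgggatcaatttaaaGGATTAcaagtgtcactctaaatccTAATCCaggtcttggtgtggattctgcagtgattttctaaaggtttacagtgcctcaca
Guca1a (chr17:47400607-47400706, minus strand): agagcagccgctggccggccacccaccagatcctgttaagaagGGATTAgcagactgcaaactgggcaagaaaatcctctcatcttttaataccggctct
Cngb1 (chr8:95306586-95306685, minus strand): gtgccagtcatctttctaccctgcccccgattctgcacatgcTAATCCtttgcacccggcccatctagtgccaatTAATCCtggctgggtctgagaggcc
Gngt1 (chr6:3993908-3994007, plus strand): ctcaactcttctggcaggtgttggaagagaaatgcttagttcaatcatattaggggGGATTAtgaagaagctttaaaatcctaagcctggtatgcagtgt
Trpm1 (chr7:64153735-64153834, plus strand): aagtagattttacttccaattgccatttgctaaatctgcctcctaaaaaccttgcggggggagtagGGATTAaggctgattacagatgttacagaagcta
Cabp5 (chr7:13398055-13398154, plus strand): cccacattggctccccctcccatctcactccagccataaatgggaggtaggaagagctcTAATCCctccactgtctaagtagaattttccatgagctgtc
The motif lay 84 and 59 bases before the start of Gucy2f, 57 before that of Guca1a, 58 and 25 before that of Cngb1 and 44 before that of Gngt1, the rod transducin gamma subunit (2.15 ± 0.26). It lay as near in these 2 genes of the other layer, 34 bases before the start of Trpm1 and 41 before that of Cabp5. Every printed region held the motif, which was not so of the lists. Of the genes with a region, it was in 2 of 12 bipolar genes (16.7%) and 2 of 14 Müller genes (14.3%).

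Cone genes divided. Of 11 cone phototransduction genes, 6 were called higher in the photoreceptor layer and 5 were not called, with a median difference of 0.97. Cone arrestin (Arr3) read 230.9, 186.7, 290.7 and 293.2 against 20.8, 29.9, 23.3 and 27.0, and the cone phosphodiesterase Pde6c read 262.9, 327.9, 296.0 and 319.2 against 38, 35.8, 42.2 and 32.7. Neither overlapped, and the differences of 3.30 ± 0.29 and 3.02 ± 0.22 were within the range of the rod genes. The middle-wavelength opsin Opn1mw was higher by 2.64 ± 0.24 (adjusted p = 3.2e-06), cone transducin Gnat2 by 1.42 ± 0.13 and the inhibitory phosphodiesterase subunit Pde6h by 0.94 ± 0.21, a call lost without 3 of the single arrays (adjusted p up to 0.061). The genes not called were Cngb3 (0.97 ± 0.29, adjusted p = 0.066), Gngt2 (0.44 ± 0.18), Cnga3 (0.32 ± 0.18), Gnb3 (0.12 ± 0.21) and Slc24a2 (0.01 ± 0.23). Gnb3, the cone transducin beta subunit that ON bipolar cells also use, read 143.9 to 206.1 in the photoreceptor layer and 126.3 to 200.6 in the inner nuclear layer, so its arrays overlapped almost wholly. The short-wavelength opsin Opn1sw is described with the adaptation states, since its signal was limited to the light-adapted arrays.

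Structural genes of the outer segment followed the rod genes closely, with 16 of 18 tested called higher, none lower and a median difference of 2.24. Rbp3, the retinoid carrier of the matrix around the outer segments, read 1088.7, 1289.6, 1271.6 and 1230.1 against 102.1, 105.8, 114.4 and 211.0 (3.26 ± 0.46, 9.58-fold). Impg1, a proteoglycan of the same matrix, read 205.7, 216.7, 239.4 and 197.3 against 23.2, 20.7, 33.5 and 26.3 (3.07 ± 0.21, adjusted p = 2.7e-07). The disc-rim proteins Rom1 and Prph2 were higher by 2.89 ± 0.21 and 2.67 ± 0.25, the axonemal protein Rp1 by 2.77 ± 0.37, the photoreceptor cadherin Cdhr1 by 2.48 ± 0.20 and the retinoid flippase Abca4 by 2.49 ± 0.28. Tulp1, which guides proteins to the outer segment, read 634.0 to 738.4 against 118.5 to 210.0 (2.07 ± 0.16). The exceptions were Fscn2 (0.82 ± 0.30, adjusted p = 0.15) and Rd3 (0.32 ± 0.17, adjusted p = 0.37). Prcd (1.60 ± 0.16), a small disc protein, and Fam161a (1.98 ± 0.22), a protein of the connecting cilium, were outside the list, chosen after their values were seen, and called higher too.

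Among 13 transcription factors of photoreceptors tested, 9 were called higher and 4 were not called, with a median difference of 1.16. The nuclear receptor Esrrb read 157.9, 133.6, 217.9 and 154.4 against 24.6, 21.5, 22.2 and 28.4, a 6.79-fold difference (2.76 ± 0.22, adjusted p = 5.3e-07) and the largest of the list. Crx, the homeodomain factor that drives photoreceptor genes, read 349.9, 476.0, 486.2 and 442.4 against 54.0, 81.3, 120.4 and 172.2 (2.16 ± 0.26). Nrl, the leucine-zipper factor that sets rod fate, read 148.5, 125.0, 198.3 and 156.4 against 65.6, 64.2, 64.9 and 73.0 (1.21 ± 0.18, adjusted p = 0.00048). Esrrb and Nrl were low and even across the inner nuclear arrays, whereas Crx was higher in the dark-adapted ones. Neurod1 (1.99 ± 0.34), Mef2c (1.58 ± 0.22), Samd7 (1.46 ± 0.16), Thrb (1.16 ± 0.27), Rorb (1.15 ± 0.27) and Mef2d (0.81 ± 0.13; 0.29 by another probe set) were also called, of which Thrb lost its call without 4 and Rorb without 6 of the single arrays (adjusted p up to 0.12 and 0.11). Otx2, which photoreceptors and bipolar cells both use, differed by 0.48 ± 0.20 (adjusted p = 0.21) with overlapping arrays, and Rxrg, Casz1 (0.18, and 1.25 by another probe set) and Sall3 were not called. Nr2e3 is not analysed here.

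The ribbon synapse list gave 8 higher and 9 uncalled genes of 17, with a median of 0.53. Complexin 4 (Cplx4), which controls vesicle fusion at photoreceptor ribbons, read 346.4, 393.0, 495.0 and 430.8 against 40.9, 30.6, 71.1 and 115.8 (2.87 ± 0.22, 7.29-fold, adjusted p = 5.3e-07). The glutamate loader of synaptic vesicles Slc17a7 was higher by 1.51 ± 0.23, Egflam (pikachurin, which links photoreceptor terminals to bipolar dendrites) by 1.43 ± 0.15, Sv2b by 1.40 ± 0.21 and the membrane fusion protein Stx3 by 1.02 ± 0.14. The calcium channel subunits of the ribbon, Cacna1f (0.76 ± 0.18) and Cacna2d4 (0.62 ± 0.16), and the scaffold Rims2 (1.12 ± 0.24) showed smaller differences, and each lost its call without 2 to 5 of the single arrays (adjusted p up to 0.16). Ctbp2, whose RIBEYE form builds the ribbon, was not called and read 228.1 to 274.0 against 207.8 to 252.1 (0.14 ± 0.14), and the active-zone scaffold Bsn, not called either, differed by -0.37 ± 0.15 (adjusted p = 0.20). The count was 5 without light-adapted or dark-adapted replicate 1 of the inner nuclear layer.

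Of 21 primary cilium genes, 13 were called higher and none lower (median 1.10), in a tissue where the outer segment is itself a modified cilium. Arl3, a GTPase that releases lipid-modified cargo in the cilium, read 655.8, 717.7, 665.4 and 580.1 against 149.5, 93.3, 201.4 and 251.9 (2.00 ± 0.21). Cep290, a protein of the transition zone, read 72.7, 66.0, 98.1 and 71.7 against 13.1, 20.2, 18.4 and 31.3 (1.95 ± 0.27). The BBSome, a coat that carries membrane proteins through cilia, supplied 6 of the calls, with Bbs1 not called: Bbs9 (1.85 ± 0.18), Bbs5 (1.75 ± 0.26), Bbs4 (1.49 ± 0.21), Bbs7 (1.43 ± 0.25), Ttc8 (1.11 ± 0.18) and Bbs2 (0.72 ± 0.19), the last lost without 4 of the single arrays (adjusted p up to 0.17). Genes of intraflagellar transport were less uniform, with Ift57 and Ift80 called (lost without 2 and 6 of the single arrays, adjusted p up to 0.060 and 0.24) and Ift20, Ift88 (0.36 ± 0.31) and Ift140 not. Rpgr differed by 0.87 ± 0.39 (adjusted p = 0.28) and its partner Rpgrip1 by 1.71 ± 0.29 (adjusted p = 0.0012).

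Retinoid, ion transport and lipid genes contained both directions. Of 8 visual cycle genes, 3 were called higher, 1 lower and 4 not (median 0.04); of 7 ion transport genes, 5 were higher, 1 lower (Atp1b1) and 1 not called (median 1.20); and of 9 lipid genes, 3 were higher, 1 lower and 5 (Elovl5, Fads2, Acsl6, Hacd2 and Mfsd2a) not called (median 0.06). In the visual cycle list, the retinol dehydrogenases Rdh12 (2.01 ± 0.20), Rdh8 (1.06 ± 0.17) and Dhrs3 (1.05 ± 0.19) were higher in the photoreceptor layer, and Rlbp1, the retinaldehyde-binding protein of Müller cells, was lower. Rlbp1 read 51.6, 52.8, 53.5 and 42.9 in the photoreceptor layer and 140.4, 154.1, 131.5 and 217.3 in the inner nuclear layer (-1.66 ± 0.16, adjusted p = 6.8e-06). Channels known from inner segments and terminals were higher: Kcnv2 (1.46 ± 0.17), a subunit of the inner segment potassium current, Ano2 (1.20 ± 0.16), a chloride channel of the terminal, and Kcnj14 (1.48 ± 0.30). The monocarboxylate carrier Slc16a1 was also higher (1.66 ± 0.33). Elovl4, which elongates very-long-chain fatty acids, read 309.5, 380.3, 393.7 and 386.7 against 41.7, 55.9, 39.7 and 107.4 (2.70 ± 0.33), and the acyltransferase Agpat3 (2.11 ± 0.28) and the receptor Adipor1 (1.40 ± 0.16), both needed for docosahexaenoic acid in the retina, were higher. The desaturase Fads1 was lower (-0.80 ± 0.16, adjusted p = 0.0043), but not called without the arrays with Y-linked signal, nor was Kcnj14.

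Energy metabolism was higher in part. Of 16 glycolysis genes, 6 were called higher and 10 were not, with a median of 0.39. Hexokinase 2 (Hk2), the first enzyme of glycolysis, stood alone in size at 220.3, 292.8, 302.2 and 286.7 against 33.6 to 63.6 (2.45 ± 0.23, 5.47-fold, adjusted p = 4.3e-06). The other 5 were Pgk1 (1.14 ± 0.25), Ldha (0.97 ± 0.18), Pgam1 (0.94 ± 0.19), Aldoa (0.90 ± 0.19) and Pkm (0.64 ± 0.16), while the glucose transporter Slc2a1 differed by 0.40 ± 0.28. This count was 3 without light-adapted replicate 2 of the photoreceptor layer, light-adapted replicate 1 or dark-adapted replicate 1 of the inner nuclear layer, and 2 without the arrays with Y-linked signal. The call of Aldoa ended without any of those 3 single arrays (adjusted p of 0.054 to 0.059), that of Pgk1 without 4 (up to 0.066) and that of Pkm without 6 (up to 0.16). All 18 oxidative phosphorylation genes tested had a positive difference (median 0.56), and 6 passed the test, led by Ndufa4 (1.44 ± 0.21), Atp5b (1.21 ± 0.24) and Uqcrc1 (0.96 ± 0.16), with 3 calls left without the arrays with Y-linked signal. Ppargc1a, a coactivator of mitochondrial genes chosen after its values were seen, read 105.5, 95.3, 118.4 and 100.1 against 30.7, 35.1, 29.2 and 42.5 (1.62 ± 0.29).

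**Figure D2:**
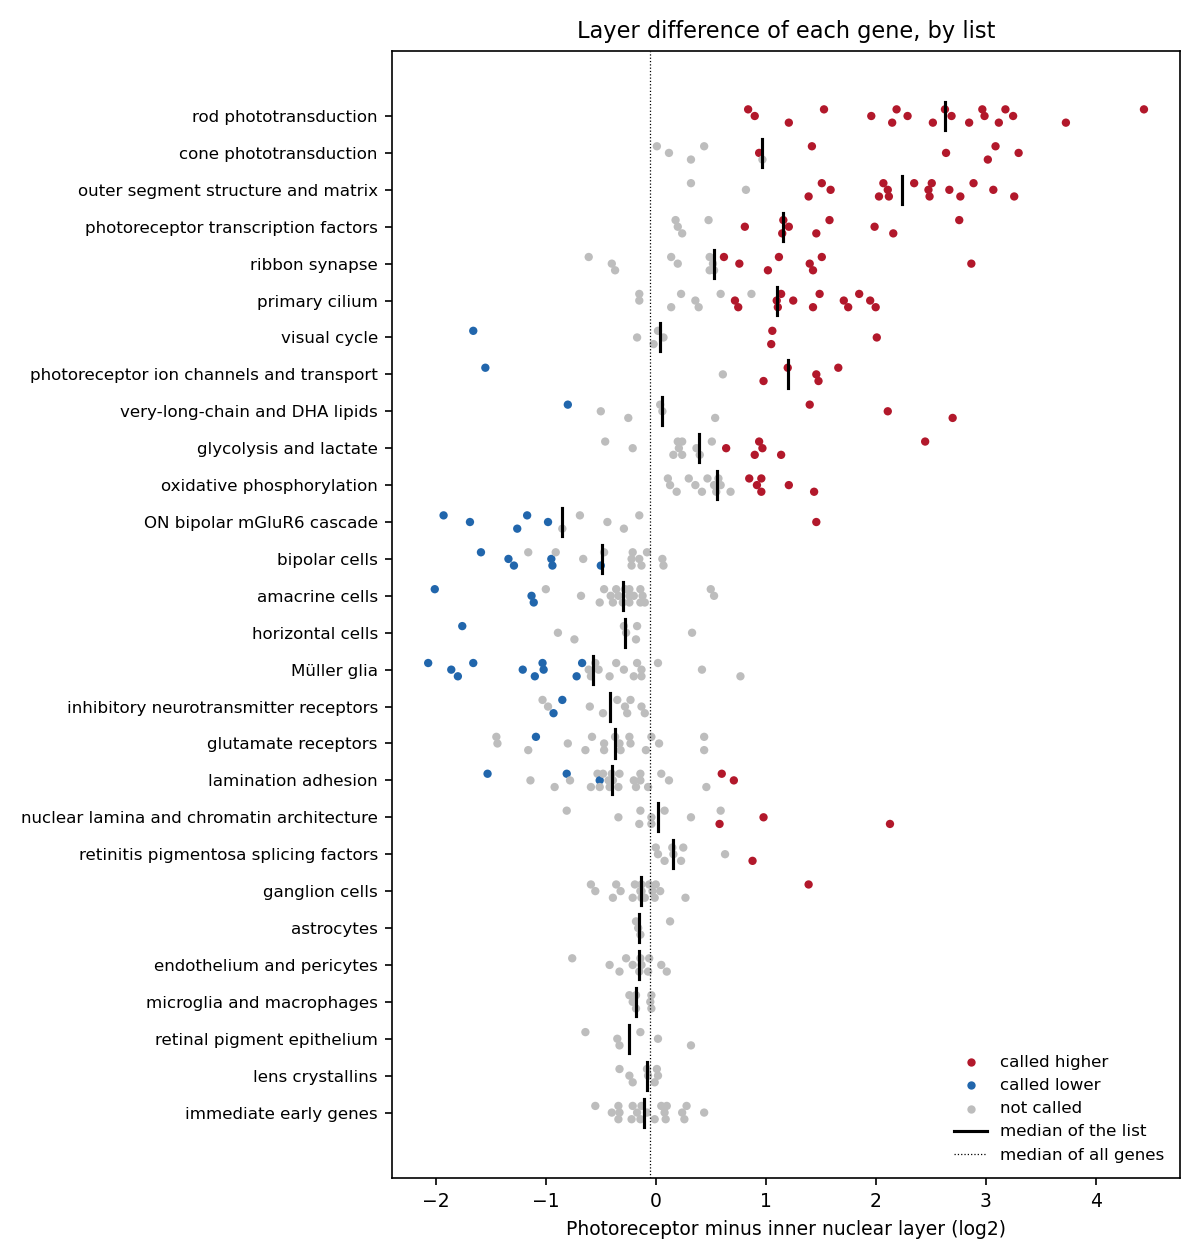
Layer difference (horizontal axis, log2) of every tested gene of each list (rows), with called genes in colour and each list's median as a black bar. Photoreceptor lists sit to the right (medians of 2.63 for rod and 2.24 for outer segment genes), lists of bipolar and Müller cells to the left (-0.49 and -0.57), and those of microglia, astrocytes and lens near the median of all genes (-0.05).

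Some of the largest photoreceptor-side differences lay outside the photoreceptor lists. Xiap, an inhibitor of caspases, read 148.8, 167.6, 236.4 and 197.5 against 9.9, 13.8, 13.4 and 39.0 (3.50 ± 0.38, 11.3-fold, adjusted p = 1.7e-05). Zdhhc2, a palmitoyltransferase, read 185.2, 184.3, 229.1 and 315.7 against 19.1, 21.3, 25.9 and 27.9 (3.26 ± 0.26), and the histone gene H2bc4 read 342.5, 320.3, 445.7 and 325.0 against 29.8, 47.3, 23.5 and 70.3 (3.18 ± 0.40). In each of these the lowest photoreceptor array exceeded the highest inner nuclear array several fold. Histone genes form a family of near-identical copies, so signal of other copies could enter the H2bc4 value. Vitronectin (Vtn), an adhesive glycoprotein chosen after its values were seen, read 736.1, 819.2, 795.8 and 724.9 against 123.8, 119.9, 177.5 and 141.2 (2.47 ± 0.17, adjusted p = 2.7e-07).

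Rod nuclei of the mouse pack their heterochromatin in the centre, and a list of nuclear envelope and chromatin genes was read with this in mind. Of 12 tested, 3 were called higher and none lower (median 0.02). Syne2, the nesprin that ties the nucleus to the cytoskeleton, read 513.9, 589.6, 491.2 and 557.7 against 71.8, 68.2, 261.0 and 176.6 (2.13 ± 0.18), and its 4 probe sets differed by 0.92 to 2.49. Ctcf, a chromatin insulator protein, was higher by 0.98 ± 0.23 (adjusted p = 0.019) and Hmgn1 by 0.58 ± 0.16 (adjusted p = 0.049). Each of those calls ended without 6 of the single arrays, with adjusted p up to 0.082 for Ctcf and 0.24 for Hmgn1, so that 1 call was left without light-adapted replicate 2 or dark-adapted replicate 1 of the photoreceptor layer, without either light-adapted array or dark-adapted replicate 1 of the inner nuclear layer, and without the arrays with Y-linked signal. The tethers of peripheral heterochromatin Lbr (-0.04 ± 0.23) and Lmna (-0.15 ± 0.16) were not called, and both overlapped between the layers.

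On the side of the inner nuclear layer, the ON bipolar cascade was the clearest group. Of its 11 genes, 5 were called lower in the photoreceptor layer, 1 higher and 5 not called, with a median of -0.85. The channel Trpm1, which opens when mGluR6 falls silent, read 126.5, 112.8, 70.3 and 64.5 in the inner nuclear layer and 32.3, 25.0, 29.1 and 25.6 in the photoreceptor layer. Its light-adapted inner nuclear arrays were the higher pair, the layers did not overlap, and the difference was -1.69 ± 0.18 (3.22-fold higher in the inner nuclear layer, adjusted p = 1.5e-05). The receptor Grm6 itself read 60.0, 46.9, 52.8 and 92.8 against 34.8, 33.0, 31.4 and 25.2 (-0.98 ± 0.18, adjusted p = 0.0021), a call lost without the arrays with Y-linked signal (adjusted p = 0.070). Gnao1, the G protein alpha subunit of the cascade, differed by -1.93 ± 0.31, the modulator Pcp2 by -1.26 ± 0.15 and the scaffold receptor Gpr179 by -1.17 ± 0.21. Gng13 (-0.69 ± 0.20, adjusted p = 0.051) and the regulators Rgs7 (-0.85 ± 0.32), Rgs11 (-0.44 ± 0.16) and Rgs7bp were not called. Nyx was not called either (-0.15 ± 0.11, and -0.53 by another probe set). Lrit3, a synaptic protein needed for the cascade that is made by photoreceptors, went the other way at 99.2, 149.7, 129.5 and 143.5 in the photoreceptor layer against 52.7, 41.2, 35.3 and 62.9 (1.46 ± 0.28, adjusted p = 0.0042).

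Of 18 further bipolar genes tested, 6 were called lower in the photoreceptor layer and none higher (median -0.49). Scgn, a calcium-binding protein of cone bipolar cells, read 20.9, 30.9, 24.8 and 96.2 in the inner nuclear layer against 12.5, 13.7, 11.1 and 9.8 (-1.59 ± 0.32), with dark-adapted replicate 2 far above the other arrays. Cabp5 read 88.3, 184.2, 66.1 and 202.3 against 57.5, 40.6, 53.5 and 42.3 (-1.34 ± 0.34, adjusted p = 0.024), and its call ended without any of 5 single arrays (adjusted p of 0.057 to 0.13). The homeodomain factor Isl1 (-1.29 ± 0.24), St18 (-0.94 ± 0.20), Neto1 (-0.95 ± 0.24) and Sebox (-0.50 ± 0.14) completed the calls, of which St18 was lost without light-adapted replicate 2 of the inner nuclear or dark-adapted replicate 1 of the photoreceptor layer (adjusted p of 0.054 to 0.060), and Neto1 and Sebox without 7 of the single arrays each (adjusted p up to 0.13 and 0.22). The rod bipolar kinase Prkca read 106.1, 139.2, 89.0 and 226.8 against 74.6, 81.5, 82.1 and 95.1, with overlap at the low end, and was not called (-0.66 ± 0.25, adjusted p = 0.18). The count of bipolar calls depended on single arrays: it was 2 without light-adapted replicate 2 of the inner nuclear layer or dark-adapted replicate 1 of the photoreceptor layer, and 3 without replicate 2 of either photoreceptor group or dark-adapted replicate 2 of the inner nuclear layer. It was 1 without the arrays with Y-linked signal, where Scgn was lost too (adjusted p = 0.056).

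Müller glia contributed 10 calls on this side, with 10 of 24 tested genes lower in the photoreceptor layer, none higher and a median of -0.57. Glutamine synthetase (Glul), the enzyme that turns glutamate into glutamine, read 353.0, 506.1, 405.0 and 590.1 in the inner nuclear layer against 112.8, 88.9, 112.6 and 122.7 (-2.07 ± 0.30, 4.19-fold higher in the inner nuclear layer, adjusted p = 0.00035). Another probe set of Glul differed by -3.33. The lipid transporter Abca8a read 48.2, 73.0, 43.5 and 132.7 against 21.0, 15.8, 15.6 and 22.6 (-1.86 ± 0.33), and Spc25, a kinetochore gene used as a Müller marker, differed by -1.80 ± 0.46, a call lost without 6 of the single arrays (adjusted p of 0.055 to 0.12). Secreted and filament proteins of these cells were lower by smaller amounts: Clu by 1.21 ± 0.22, Vim by 1.10 ± 0.27, Dkk3 by 1.02 ± 0.20 and Apoe by 0.72 ± 0.12 on the log2 scale, with the Vim call lost without 5 of the single arrays (adjusted p up to 0.13). Slc1a3, the glutamate transporter of Müller cells, read 64.3, 100.4, 59.4 and 102.9 against 52.1, 64.8, 43.6 and 58.6 and was not called (-0.55 ± 0.20, adjusted p = 0.15). Sox9 (-0.36 ± 0.16), Kcnj10 (-0.42 ± 0.18) and Aqp4 (-0.29 ± 0.19) were not called either. The 10 calls became 6 without replicate 1 of either photoreceptor group or without dark-adapted replicate 2 of either layer.

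A minority of the amacrine and horizontal cell genes was called, against 1.26% of all genes called lower. Of 23 amacrine genes, 3 were called, all lower in the photoreceptor layer (median -0.30), and this count was 1 without light-adapted replicate 2 of the photoreceptor layer. Pax6, the homeodomain factor of amacrine, horizontal and ganglion cells, read 171.0, 318.3, 169.4 and 280.2 against 54.2, 43.0, 62.5 and 66.9 (-2.01 ± 0.27, 4.04-fold higher in the inner nuclear layer, adjusted p = 0.00015). Tfap2b, an amacrine transcription factor, differed by -1.13 ± 0.25, and C1ql1, a secreted synaptic organiser, by -1.11 ± 0.26. Tfap2b was not called without that array (adjusted p = 0.074), and C1ql1 not without any of 4 single arrays (adjusted p of 0.070 to 0.094). Genes of the inhibitory transmitters themselves were not called: Gad1, which makes GABA, read 129.4 to 186.0 against 107.1 to 136.3 (-0.34 ± 0.17), the vesicle loader Slc32a1 differed by -0.36 ± 0.18 and the glycine transporter Slc6a9 by -0.41 ± 0.18. Among 8 horizontal cell genes, Prox1 alone was called, at 64.8, 116.0, 44.2 and 146.4 against 36.3, 17.6, 33.0 and 17.6 (-1.76 ± 0.38, adjusted p = 0.0099). Its call ended without replicate 2 of either photoreceptor group or light-adapted replicate 2 of the inner nuclear layer (adjusted p of 0.058 to 0.072). Calb1 (-0.89 ± 0.52), Onecut1 (-0.29 ± 0.17) and Lhx1 (-0.27 ± 0.17) were not called.

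**Figure D3:**
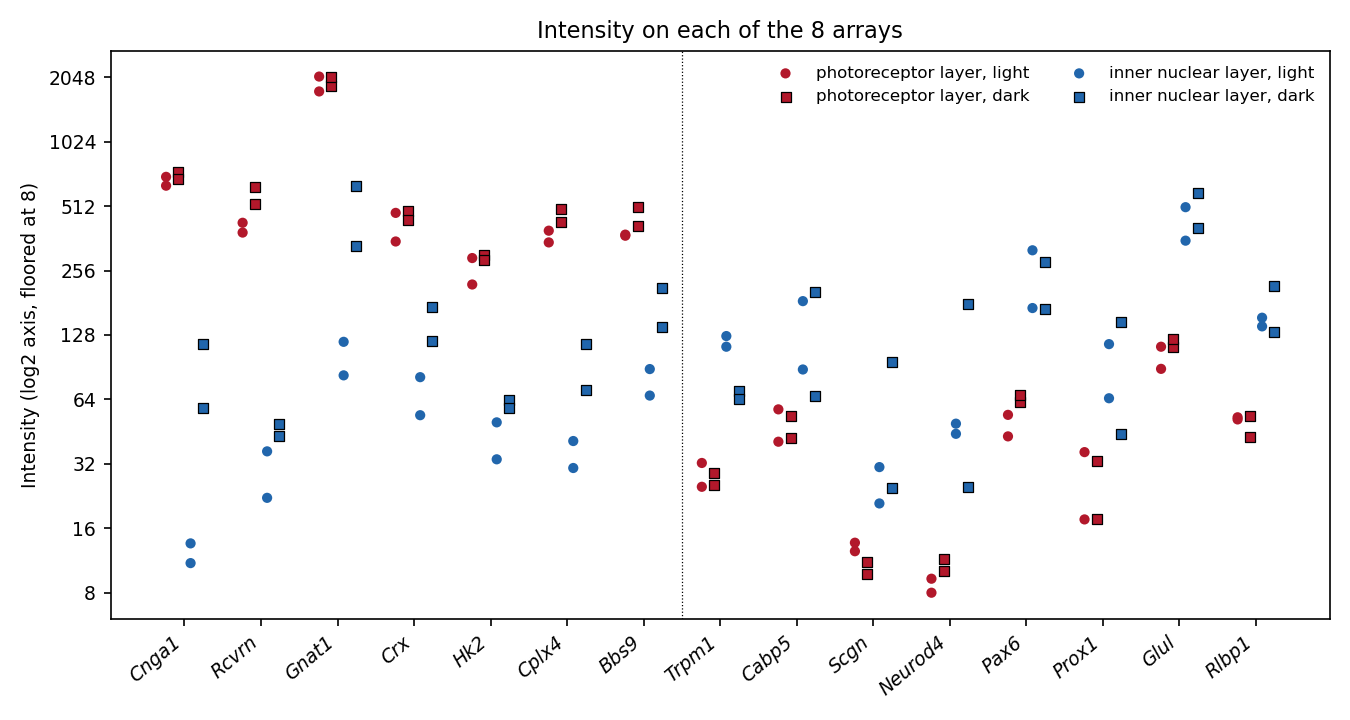
Intensity (vertical axis, log2 scale, floored at 8) of 15 genes on each of the 8 arrays, circles for light-adapted and squares for dark-adapted arrays. Photoreceptor arrays are red and inner nuclear arrays blue: for Cnga1 the red points lie between 637.7 and 735.4, above all blue points, and for Neurod4 the blue points spread from 25.0 to 177.9, above all red points.

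Genes outside the cell-type lists gave several of the largest inner nuclear differences. Neurod4, a basic helix-loop-helix factor of the inner retina, read 44.2, 49.3, 25.0 and 177.9 in the inner nuclear layer against 6.2, 9.3, 10.1 and 11.5 (-2.53 ± 0.44, 5.79-fold higher in the inner nuclear layer, adjusted p = 0.0016). One photoreceptor array lay under the floor and the 4 inner nuclear arrays were spread over a wide range, so the size of this difference is loosely set. Cadps, which primes dense-core vesicles for release, read 166.6, 354.5, 113.6 and 453.3 against 47.1, 39.5, 52.4 and 53.1 (-2.30 ± 0.37), and the receptor phosphatase Ptprd 169.7, 292.6, 113.0 and 366.3 against 51.5, 41.3, 60.2 and 67.3 (-1.97 ± 0.30). Both genes were highest on replicate 2 of each inner nuclear group. The bicarbonate transporter Slc4a10 (-1.89 ± 0.51, adjusted p = 0.037) and Frmd3 (-1.93 ± 0.54, adjusted p = 0.048) were close to the threshold, and their calls ended without 6 and 7 of the single arrays (adjusted p of up to 0.18 for both). Zfp804b differed by -1.84 ± 0.35. Genes chosen after their values were seen included the secreted protein Ndnf (-1.73 ± 0.28), the potassium channel Kcnma1 (-1.58 ± 0.37), the granule protein Scg2 (-1.26 ± 0.23) and the factors Zfhx4 (-1.11 ± 0.20), Tbx2 (-0.98 ± 0.15) and Nfix (-0.94 ± 0.21). A separate Kcnma1 probe set differed by -0.14. Of these genes, Kcnma1 lost its call without 6 and Nfix without 2 of the single arrays (adjusted p up to 0.073 and 0.059).

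Receptors for inhibitory transmitters and glutamate, through which inner retinal neurons listen to each other, gave few calls, beside 1.26% of all genes called lower. All 12 inhibitory receptor genes tested had a negative difference (median -0.42), and 2 were called: the glycine receptor Glra1 (-0.93 ± 0.22) and the GABA receptor Gabrr3 (-0.85 ± 0.22), each lost without 6 of the single arrays (adjusted p of 0.055 to 0.11 and 0.062 to 0.14). Of 19 glutamate receptor genes, 1 was called, a share near the 5.33% of all genes: Grid1 (-1.09 ± 0.25, adjusted p = 0.013) had 29.4 to 46.9 in the photoreceptor and 62.4 to 98.7 in the inner nuclear layer, and its call ended without 4 of the single arrays (adjusted p of 0.051 to 0.083), while 3 genes of the list were called without dark-adapted replicate 1 of the inner nuclear layer. The AMPA receptor subunit Gria4 had a larger but more variable difference (-1.44 ± 0.47, adjusted p = 0.096). Among 26 genes of lamination and adhesion, Nrxn3 (-1.53 ± 0.29), Cdh8 (-0.81 ± 0.19) and Sdk2 (-0.51 ± 0.13) were lower in the photoreceptor layer, and Dscaml1 (0.71 ± 0.19) and Nlgn2 (0.60 ± 0.16) were higher. Nrxn3 kept its call whichever 1 array was left out; the other 4 lost theirs without 5 to 7 of the single arrays (adjusted p up to 0.16).

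Some genes of the inner nuclear side also stood above the inner plexiform and ganglion cell layers, and others did not. That contrast shares the inner nuclear arrays with the main one, and 42 of 15057 genes (0.279%) were called higher in the inner nuclear layer. Trpm1 was 1.46 ± 0.15 above the mean of those layers (adjusted p = 0.00018), Scgn 1.57 ± 0.28, Cabp5 1.39 ± 0.29, Rlbp1 1.25 ± 0.14 and the uncharacterised zinc-finger gene Zfp804b 1.42 ± 0.30. Prkca, not called against the photoreceptor layer, was called here (1.26 ± 0.22, adjusted p = 0.013). Other genes were not called there: mean log2 levels of Pax6 were 7.82 (inner nuclear), 7.70 (inner plexiform) and 8.25 (ganglion cell), against 5.80 for photoreceptors. Gnao1 was at 8.04, 7.78 and 8.32 against 6.11. Glul was at 8.83, 8.56 and 8.09 against 6.76, and its difference of 0.50 ± 0.26 from the plexiform and ganglion cell layers was not called.

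Related genes lay on opposite sides in several of 12 families chosen after their values were seen. Neurod1 was 1.99 ± 0.34 higher in the photoreceptor layer and Neurod4 was lower. Of the Na,K-ATPase beta subunits, which the pump needs to reach the membrane, Atp1b1 was lower (-1.55 ± 0.33) and Atp1b2 (0.98 ± 0.24) and Atp1b3 (2.53 ± 0.19) were higher. Complexin 4 was higher, whereas Cplx3 (-0.61 ± 0.22), Cplx1 (-0.09 ± 0.21) and Cplx2 (-0.24 ± 0.15) were not called. The exchanger Slc24a1 of rods was higher and Slc24a3 lower (-1.13 ± 0.27), and the membrane guanylate cyclases Gucy2f and Gucy2e (1.21 ± 0.14) were higher while Gucy1a1, a subunit of the nitric oxide-sensitive cyclase, was lower (-1.21 ± 0.25). The dopamine receptor Drd4 of photoreceptors was higher (0.95 ± 0.15) and Drd2 lower (-0.78 ± 0.20), with the Drd2 arrays touching at 85.7. Faim read 124.6, 179.1, 160.8 and 143.3 against 37.9, 30.0, 45.2 and 30.9 (2.08 ± 0.20), and the neuronal Fas inhibitor Faim2 read 81.5, 82.4, 71.6 and 75.8 against 136.0, 281.3, 148.1 and 171.9 (-1.18 ± 0.21). Hmgn2 was called higher by the probe set used (0.88 ± 0.16), a call lost without the arrays with Y-linked signal (adjusted p = 0.092), while its other 4 probe sets differed by 0.51, 0.53, 0.51 and -0.12. Hmgn3 was lower (-1.27 ± 0.35), and Syne1 (-0.81 ± 0.24, adjusted p = 0.063) was not called beside Syne2. Of the glutamate transporters, the neuronal Slc1a1 was lower (-0.69 ± 0.17) and Slc1a2 higher (0.80 ± 0.23). The calls of Drd2, Hmgn3, Slc24a3, Slc1a1 and Slc1a2 each ended without at least 4 of the single arrays (adjusted p up to 0.23), that of Atp1b2 without 5 (up to 0.14) and that of Atp1b1 without 2 (adjusted p of 0.054 to 0.058).

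**Figure D4:**
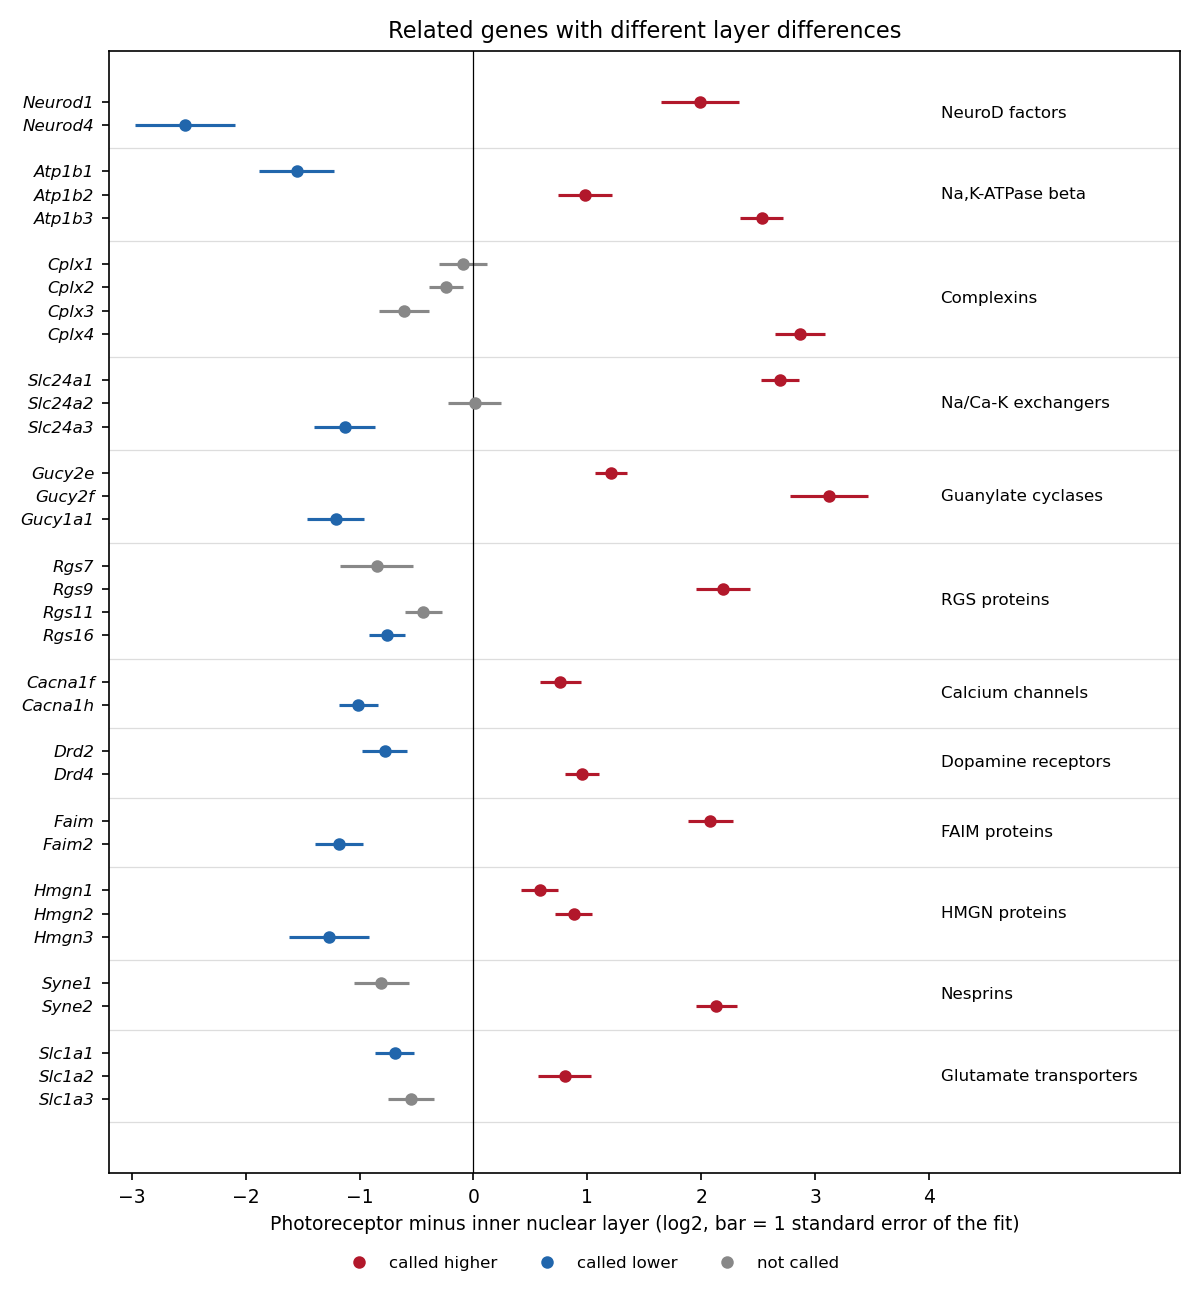
Layer difference (horizontal axis, log2, points with bars of 1 standard error of the fit) of the members of 12 gene families, with red for genes called higher and blue for genes called lower in the photoreceptor layer. Neurod1 (1.99) and Neurod4 (-2.53) lie farthest apart, and Cplx4 (2.87) stands clear of the other complexins.

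Of 143 genes tested with microRNA names, 1 was called, lower in the photoreceptor layer, against 1.26% of all genes called lower. These names include the host genes Mir99ahg and Mir100hg, neither of them called. The called gene was Mir181b-2, and the other 5 Mir181 genes tested were not called. Mir181b-2, of a miRNA family known in the inner retina, read 59.9, 65.6, 115.1 and 94.5 in the inner nuclear layer against 33.0, 30.7, 27.9 and 29.7 (-1.42 ± 0.32, adjusted p = 0.014). The layers did not overlap, and the gene also stood above the inner plexiform and ganglion cell layers (1.30 ± 0.28, adjusted p = 0.042). Its call against the photoreceptor layer ended without 4 of the single arrays (adjusted p of 0.052 to 0.060). The probe set reads RNA from the gene and not the mature miRNA. RefSeq lists both mature arms on chromosome 2 (GRCm38.p6, plus strand), given with the seed, bases 2 to 8, in capitals, since it is the seed that pairs with targets.
mmu-miR-181b-5p (chr2:38853845-38853868): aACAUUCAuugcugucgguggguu
mmu-miR-181b-2-3p (chr2:38853883-38853904): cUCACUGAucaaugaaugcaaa

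Most genes called in one adaptation state had the same sign in the other. With 2 arrays against 2, 266 genes (1.77%) were called in light, 239 higher and 27 lower in the photoreceptor layer, and 226 (1.5%) in dark, 193 higher and 33 lower. Of the 239 higher in light, 238 had the same sign in dark and 137 were called there too, with median differences of 1.69 in light and 1.37 in dark. Of the 27 lower in light, 25 had the same sign and 12 were called in dark. Among the 802 genes of the main comparison, 797 had the same sign in both states. Those genes were called on the mean of the light and dark differences, so a shared sign is partly built into that count. The light count was 83 without light-adapted replicate 2 of the photoreceptor layer, 118 to 146 without any of the other 3 light-adapted arrays, and 74 without the arrays with Y-linked signal. The dark count was 56 and 59 without dark-adapted replicates 1 and 2 of the photoreceptor layer and 97 without dark-adapted replicate 1 of the inner nuclear layer. Only 3 genes (0.0199%) were called for a change in the layer difference itself, with 309 at an unadjusted p under 0.05, and these were Opn1sw, Paip2 and Atp1b3.

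Opn1sw, the short-wavelength cone opsin, read 628.0 and 556.7 in the light-adapted photoreceptor layer and 1.4 and 1.5 in the dark-adapted one. Both dark-adapted inner nuclear arrays (1.1 and 1.8) and light-adapted replicate 2 (4.0) were under the floor, and replicate 1 (8.3) was at it. The layer difference was 6.18 ± 0.26 in light and 0.00 ± 0.26 in dark, and the change was -6.18 ± 0.36 (adjusted p = 6.1e-08), or -5.21 ± 0.28 and -6.68 ± 0.56 with floors of 16 and 4. The whole retina, which entered neither layer, read 594.1 and 600.8 in light and 4.5 and 2.9 in dark, the same split. Opn1mw, which most mouse cones carry as well, went against that split at 165.7 and 190.5 in light and 292.8 and 343.5 in dark.

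Paip2, which binds poly(A)-binding protein and holds back translation, read 55.0 and 51.2 in light and 245.6 and 252.4 in dark in the photoreceptor layer, while the inner nuclear layer read 79.6 and 96.4 in light and 46.4 and 44.2 in dark. Its layer difference was -0.72 ± 0.22 in light and 2.46 ± 0.22 in dark, a change of 3.18 ± 0.31 (adjusted p = 9.7e-05). Atp1b3 read 37.7 and 42.8 in light and 149.5 and 164.0 in dark against 25.7 and 21.7 in light and 5.1 and 4.0 in dark, so the layers moved in opposite directions, and the change was 3.52 ± 0.37 (adjusted p = 0.00019). Both dark-adapted inner nuclear arrays lay under the floor of 8, so this size depends on the floor: it was 2.52 ± 0.34 with a floor of 16 and 4.35 ± 0.41 with a floor of 4, called in both. A separate Atp1b3 probe set read 38.3 and 42.9 against 141.0 and 161.3 in the photoreceptor layer. In the whole retina both genes were also higher in dark, Paip2 at 266.0 and 276.4 against 136.6 and 125.0 and Atp1b3 at 209.8 and 195.4 against 68.3 and 64.8. The separate Atp1b3 probe set read 188.0 and 190.3 there in dark against 32.3 and 119.2 in light, so its light-adapted arrays lay far apart. For Paip2 and Atp1b3, the dark-adapted inner nuclear arrays lay under the light-adapted ones.

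Slc1a1 and Nlgn2 had the next smallest p-values for such a change but were not called (adjusted p = 0.49 and 0.25). Slc1a1, a neuronal glutamate transporter, read 134.5 and 138.1 in light and 408.2 and 411.2 in dark in the photoreceptor layer against 319.8 to 462.0 in the inner nuclear layer. Nlgn2, an adhesion protein of inhibitory synapses, read 186.4 and 140.6 in light and 482.0 and 547.6 in dark against 186.4 to 193.2, and its layer difference was -0.23 ± 0.22 in light and 1.42 ± 0.22 in dark. The factor Zhx2 (0.30 ± 0.35 in light and 2.39 ± 0.35 in dark) and the sulfotransferase Chst10 (-0.13 ± 0.25 and 1.47 ± 0.25), chosen after their values were seen, had the same form. The Y-linked signal was present on light-adapted arrays alone. Without the arrays that carry it, 1 light-adapted array was left in the photoreceptor layer and 1 in the inner nuclear layer, assumed to vary like the other groups. The change was then -6.12 ± 0.56 for Opn1sw, 3.37 ± 0.33 for Paip2 and 3.31 ± 0.43 for Atp1b3.

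**Figure D5:**
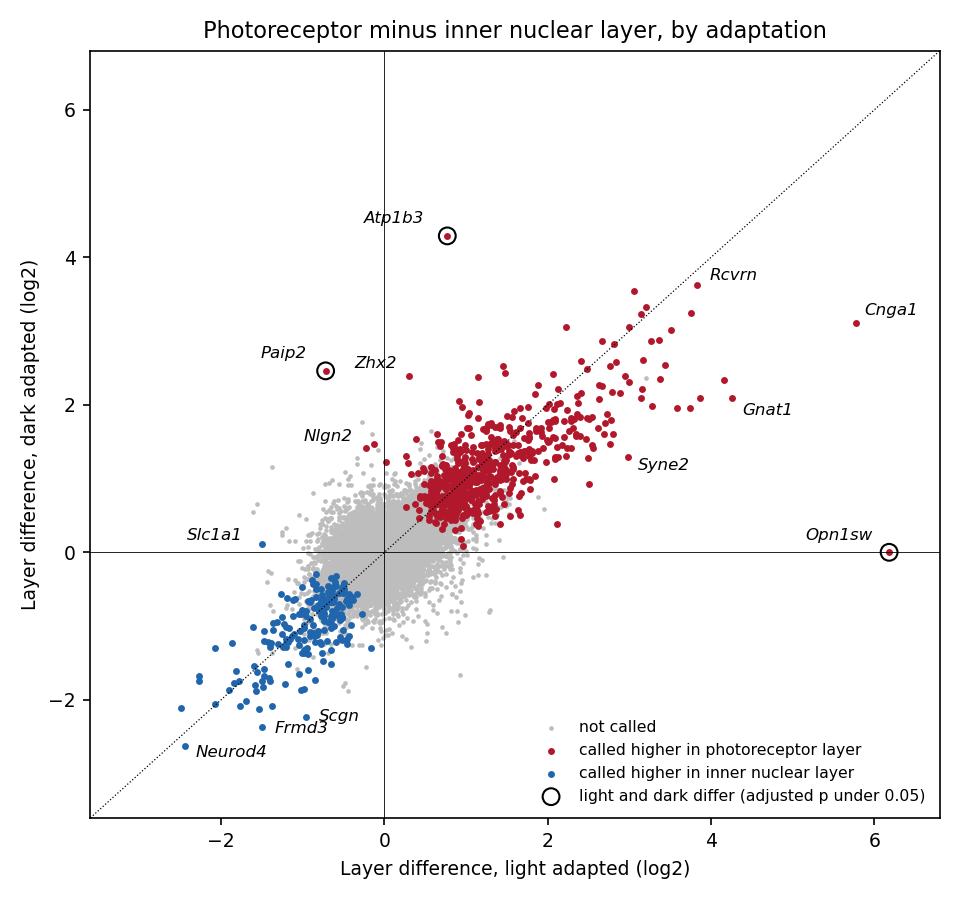
Layer difference in dark (vertical axis, log2) against that in light (horizontal axis, log2) for 15057 genes, coloured by their call in the main comparison, with the dotted line at equality. Most called genes lie near the line, and the 3 circled genes, Opn1sw (6.18 in light, 0.00 in dark), Paip2 (-0.72 and 2.46) and Atp1b3 (0.77 and 4.29), lie far from it.

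Markers of other cell types, and immediate early genes, were counted in the same way. Of 19 ganglion cell genes, 1 was called, a share near the 5.33% of all genes (median -0.13): Jam2, an adhesion molecule, read 149.7, 191.7, 140.9 and 170.4 in the photoreceptor layer against 62.5, 42.1, 54.3 and 100.9 (1.39 ± 0.21). The ganglion cell surface protein Thy1 was at or under 8.9 on all 8 arrays. None of 4 astrocyte, 12 endothelial and pericyte, 7 microglial, 6 pigment epithelial, 8 crystallin and 20 immediate early genes was called by limma, with medians from -0.24 (pigment epithelium) to -0.08 (crystallins). The summed intensity of the microglial genes ranged from 400.1 to 422.3 in the photoreceptor and from 408.2 to 493.4 in the inner nuclear layer, and that of the pigment epithelial genes from 206.4 to 229.3 and from 230.7 to 265.2. At an unadjusted p under 0.05, 5 of these 57 genes passed (Kdr, Vwf, Rrh, Jun and Dusp1), or 8.77%, against 15.9% of all genes. Rpe65, the defining enzyme of the pigment epithelium that touches the outer segments, did not pass the filter and read 6.5 to 12.2 on the 8 arrays. Flt1, a vascular growth factor receptor chosen after its values were seen, was lower in the photoreceptor layer (-1.31 ± 0.21), at 36.0 to 66.7 against 115.6 to 151.4. Rod genes were present in the inner nuclear arrays, with a mean log2 level of 6.75 ± 0.63 (SD, n = 4) over the 19 genes, and their part in the size of the layer differences was not tested.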

How the data were processed

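Total RNA from the captured layers was amplified, labelled with biotin and hybridised to Affymetrix arrays, per the labels' protocols. The deposited table holds 35557 probe sets on 20 arrays as intensities made with GCRMA, per the submitters' processing notes, with the version not given in the sources used here. That the intensity scale of the deposited values is linear was read from the values. GCRMA subtracts background and equalises the arrays, so a difference common to all genes cannot be seen. Intensities under 8 were set to 8 before log2. Of the probe sets, 21789 have 1 gene symbol, 1621 several and 12147 none in the platform annotation; only the first kind was used, and 21698 of them matched RefSeq. Probe sets above a log2 value of 5 on at least 2 arrays were kept (16444), and the probe set with the highest mean stood for each of 15057 genes.

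Group means of all 10 groups were fitted with limma 3.58.1 in R 4.3.3 (eBayes with an intensity trend, 10 residual degrees of freedom), and p-values were adjusted by Benjamini-Hochberg over all genes, with a threshold of 0.05. The test was tested on simulated data. Depth is no property of arrays; their number, 2 in each group, limits the precision. Replicate numbers were not taken as pairs, since 2 pairs are too few to show it (correlations of deviations of 0.15 and 0.10). Members and lists were chosen with earlier results of these data known. Named were the 12 largest called differences in each direction with non-overlapping arrays (leaving out predicted and chemosensory genes), up to 4 called genes per direction of each list, the 5 smallest p-values for a change between light and dark, and a set of known markers; others are marked in the text or are members named to complete a list. Alternatives covered normalization, floor, filter, probe sets, weights, blocks and left-out arrays.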

Additional observations from a re-analysis of the deposited data

Results flagged for a closer look

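The layer difference of 3 genes changed between dark and light by the test of that change in limma, in dark minus light. Opn1sw changed by -6.18, Paip2 by 3.18 and Atp1b3 by 3.52 on the log2 scale. Each was seen on both arrays of each group, and the whole retina arrays, which entered neither layer, moved in the direction of the photoreceptor layer.

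Y-linked probe sets, which the report uses to choose arrays to leave out, carried signal on 2 of the 8 arrays. Their median intensity was 293.2 on light-adapted replicate 1 of the photoreceptor layer and 286.15 on light-adapted replicate 1 of the inner nuclear layer, over 68 probe sets, while the other 6 arrays lay between 8.55 and 25.75. Groups of 2 arrays are too small for a check of single outlying values.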

How the results depend on the processing

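Of the named genes that were called, none reversed its direction under any of the 24 alternatives that gave it a value. Direction changes of uncalled genes were not counted, and members named only to complete a list were left out of this check. Of 128 named genes that were called, 87 kept the call under every alternative other than a minimum difference of 1, and 35 lost it when some single array was left out. A check added after seeing the data followed all called list members and all called genes chosen after their values were seen (169). Some of them lost the call without some single array, and some once all arrays with Y-linked signal were left out. Of the 802 calls (613 higher, 189 lower), a required minimum log2 difference of 1 left 424 (350 and 74). Without the arrays with Y-linked signal there were 388 calls (306 and 82), 380 of them shared with the 802, and 74 calls in light. A replicate block within each adaptation state gave 1294 calls (987 and 307), and a replicate block by number gave 1248 (928 and 320). Array weights gave 338 lower genes and 573 calls in light. Without a filter the dark comparison had 130 calls, and with a filter at log2 over 7 the change between dark and light had 1. Leaving out 1 array at a time gave 442 to 788 calls in all, 357 to 684 higher, 81 to 182 lower, 83 to 306 in light, 56 to 231 in dark and 3 to 3 for the change. The cause of these shifts was not tested, except that a left-out array lowers the number of samples. The share of calls that were higher, 76.4%, ranged from 66.9% without dark-adapted replicate 1 of the inner nuclear layer to 86.8% without its replicate 2. With 2 arrays in each group and no link to animals, small differences stay undetected.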
